A study of Mus musculus with 24 samples.

Results

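GAS6 and its relative protein S are the secreted ligands of the TAM receptors, a family of receptor tyrosine kinases named after its members TYRO3, AXL and MERTK. The genes followed here were the 2 ligand genes, Gas6 and Pros1 (which encodes protein S), and the 3 receptor genes, Axl, Tyro3 and Mertk. These 5 genes were taken by symbol from the 53801 genes listed with an FPKM value (fragments per kilobase of gene, scaled to a fixed library size), and all 5 were found. RNA was sequenced from murine pancreatic stellate cells (PSC), fibroblast-like cells of the pancreas that can become cancer-associated fibroblasts, in 24 libraries of 8 groups with 3 libraries each.

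PSC came from pooled pancreata of 4 to 10 wild-type C57BL/6J mice aged 7 to 10 weeks and were used at passage 1 to 2. The co-cultured KPC cells were 1 pancreatic cancer cell line from a mouse carrying p48-Cre, which drives recombination in the pancreatic lineage, with mutant alleles behind lox-stop-lox cassettes, among them Trp53 R172H/+. In standard co-culture PSC sat on an insert with 1 µm pores above KPC cells on the well floor, a distant paracrine setting, and in inverse co-culture KPC cells sat on the underside of the same membrane, a close paracrine setting. PSC were collected after 24 h or 72 h, and each model and time had its own control group of PSC without KPC cells. Apart from KPC cells, co-cultures and controls shared genotype, medium and insert. In inverse co-culture KPC cells were attached before the PSC were seeded, so both cell types had been together for up to 96 h at the 72 h time point. The libraries of the standard model were made from 450 ng of RNA and those of the inverse model from 120 ng, a difference that cannot be told apart from that between the models.

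GAS6 and protein S carry a Gla domain, whose glutamates are carboxylated in a vitamin K-dependent step. This domain binds phosphatidylserine on apoptotic cells, vesicles and activated platelets, and the other end of the ligand binds the receptor, so the ligand bridges the phosphatidylserine surface to the TAM-bearing cell. AXL binds GAS6 and is common on fibroblasts and mesenchymal cancer cells, MERTK is best known for the uptake of apoptotic cells by macrophages, and TYRO3 is prominent in the nervous system. Cancer cells and fibroblasts can both carry TAM receptors and release their ligands.

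The libraries held 15932737 to 24798761 counted fragments with a median of 18860269. Among 15 listed stellate cell and fibroblast markers, 14 were above 1 FPKM in every library, with a lowest value of 2.53 FPKM for Fap. The exception was the stellate cell marker Gfap, with a median of 0.014 FPKM, a maximum of 0.24 FPKM and 0 in 12 of 24 libraries. The summed level of the list was 23230 to 40260 FPKM. The collagen genes Col1a1, Col1a2 and Col3a1 dominated this sum, with medians of 7984, 4628 and 12830 FPKM. Of 12 epithelial and cancer cell markers, 5 passed 1 FPKM in any library. Their sum was 46.2 FPKM in replicate 2 of inverse co-culture at 24 h and at most 11.1 FPKM in the other libraries, and Grhl2 was at 0 in all 24 libraries. In the inverse model it was 3.46 to 46.2 FPKM in co-cultures and 1.27 to 2.29 FPKM in controls at 24 h. At 72 h these ranges were 4.77 to 11.1 and 2.50 to 6.94 FPKM. Krt8 averaged 0 in the inverse controls and 5.74 and 1.38 FPKM in the 24 h and 72 h co-cultures, while Epcam was at most 0.123 FPKM anywhere. The part of KPC RNA in the values of the 5 genes was not tested. The macrophage list, with 17 of 17 genes above 1 FPKM in some library, summed to between 29.0 and 1640 FPKM, and the adipocyte list, with 8 of 8, to between 37.9 and 973 FPKM. Acinar (8 genes), endothelial (8), mesothelial (5) and Schwann cell (4) lists stayed at or below 20.1, 8.57, 48.1 and 1.93 summed FPKM. Within the standard model, replicate 1 stood apart in Pros1, Axl and Mertk, and the standard-model values of these genes and of Gas6 are given with and without it.

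Gas6 lies on chromosome 8 (13494490 to 13465374 on the minus strand, genome build GRCm38), Pros1 on chromosome 16 (62854307 to 62929346, plus strand), Axl on chromosome 7 (25788705 to 25757273, minus strand), Tyro3 on chromosome 2 (119797733 to 119818104, plus strand) and Mertk further along chromosome 2 (128698956 to 128802894, plus strand). Counting did not use strand, and an exon of Tmem255b on the opposite strand covered 34 bases of the Gas6 exons, and Tmem255b had a median of 0.327 FPKM. No exon of another annotated gene overlapped those of the other 4 genes. The promoters of Gas6, the TAM gene called under co-culture, and Axl, its main receptor gene in these cells, are shown in the RefSeq annotation of GRCm38.p6, each from 250 bases before to 50 bases after the start of transcription on the strand of the gene. Gas6 is the window chr8:13494486-13494785 and Axl the window chr7:25788684-25788983, both on the minus strand. Capitals mark every match, on either strand, to a GC box (GGGCGG), to the core of the TEAD motif (GGAATG), to TATAAA, to CACGTG or to the AP-1 site TGAGTCA, and no marked matches overlap in these windows.
Gas6: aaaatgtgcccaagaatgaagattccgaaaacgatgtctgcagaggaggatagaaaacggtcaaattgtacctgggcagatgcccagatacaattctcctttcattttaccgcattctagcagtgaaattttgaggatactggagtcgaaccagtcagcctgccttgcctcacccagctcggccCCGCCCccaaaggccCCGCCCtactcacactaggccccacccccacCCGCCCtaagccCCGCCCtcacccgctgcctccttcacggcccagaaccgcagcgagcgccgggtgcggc
Axl: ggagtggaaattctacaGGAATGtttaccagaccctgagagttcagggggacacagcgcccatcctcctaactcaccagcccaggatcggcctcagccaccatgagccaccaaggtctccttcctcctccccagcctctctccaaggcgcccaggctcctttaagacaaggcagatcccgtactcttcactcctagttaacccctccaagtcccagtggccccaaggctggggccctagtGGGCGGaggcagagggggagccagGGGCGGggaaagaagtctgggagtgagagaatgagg

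The Gas6 window held 4 GC boxes and the Axl window 2, while 35.7% of 32851 promoters of the same length held at least 1 and 10.7% held 3 or more. The Pros1, Tyro3 and Mertk promoters, not printed, held 5, 6 and 4. The Axl window was the only 1 of the 5 with the TEAD core, a sequence found in 14.7% of all promoters. None of the 5 held TATAAA, present in 13.6% of all promoters, CACGTG, present in 7.15%, or TGAGTCA, present in 5.20%. These matches describe the letters of the windows and say nothing of what binds there.

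The levels of the 5 genes differed widely, and their order was nearly the same in all libraries. To compare genes, fragments were divided by the longest coding transcript of each gene and by the library total, because the deposited FPKM had used the mean length of all annotated transcripts, short models included. On that scale the median over 24 libraries was 432 for Gas6, 162 for Axl, 70.3 for Pros1, 5.81 for Tyro3 and 1.02 for Mertk on the FPKM scale. Gas6 exceeded Axl in 21 of 24 libraries, and the exceptions were co-culture libraries. Axl exceeded Pros1, Pros1 exceeded Tyro3 and Tyro3 exceeded Mertk in 24 of 24 libraries. Axl supplied 93.6% to 97.9% of the summed receptor level, so the receptor transcript pool of these PSC was nearly all Axl. From here on, levels are the deposited FPKM, which serves comparisons of 1 gene between groups. That scale lifts Axl by 2.52 times, Tyro3 by 2.42 times, Pros1 by 2.00 times and Mertk by 1.22 times over the longest-transcript scale and leaves Gas6 as it is.

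**Figure D1:**
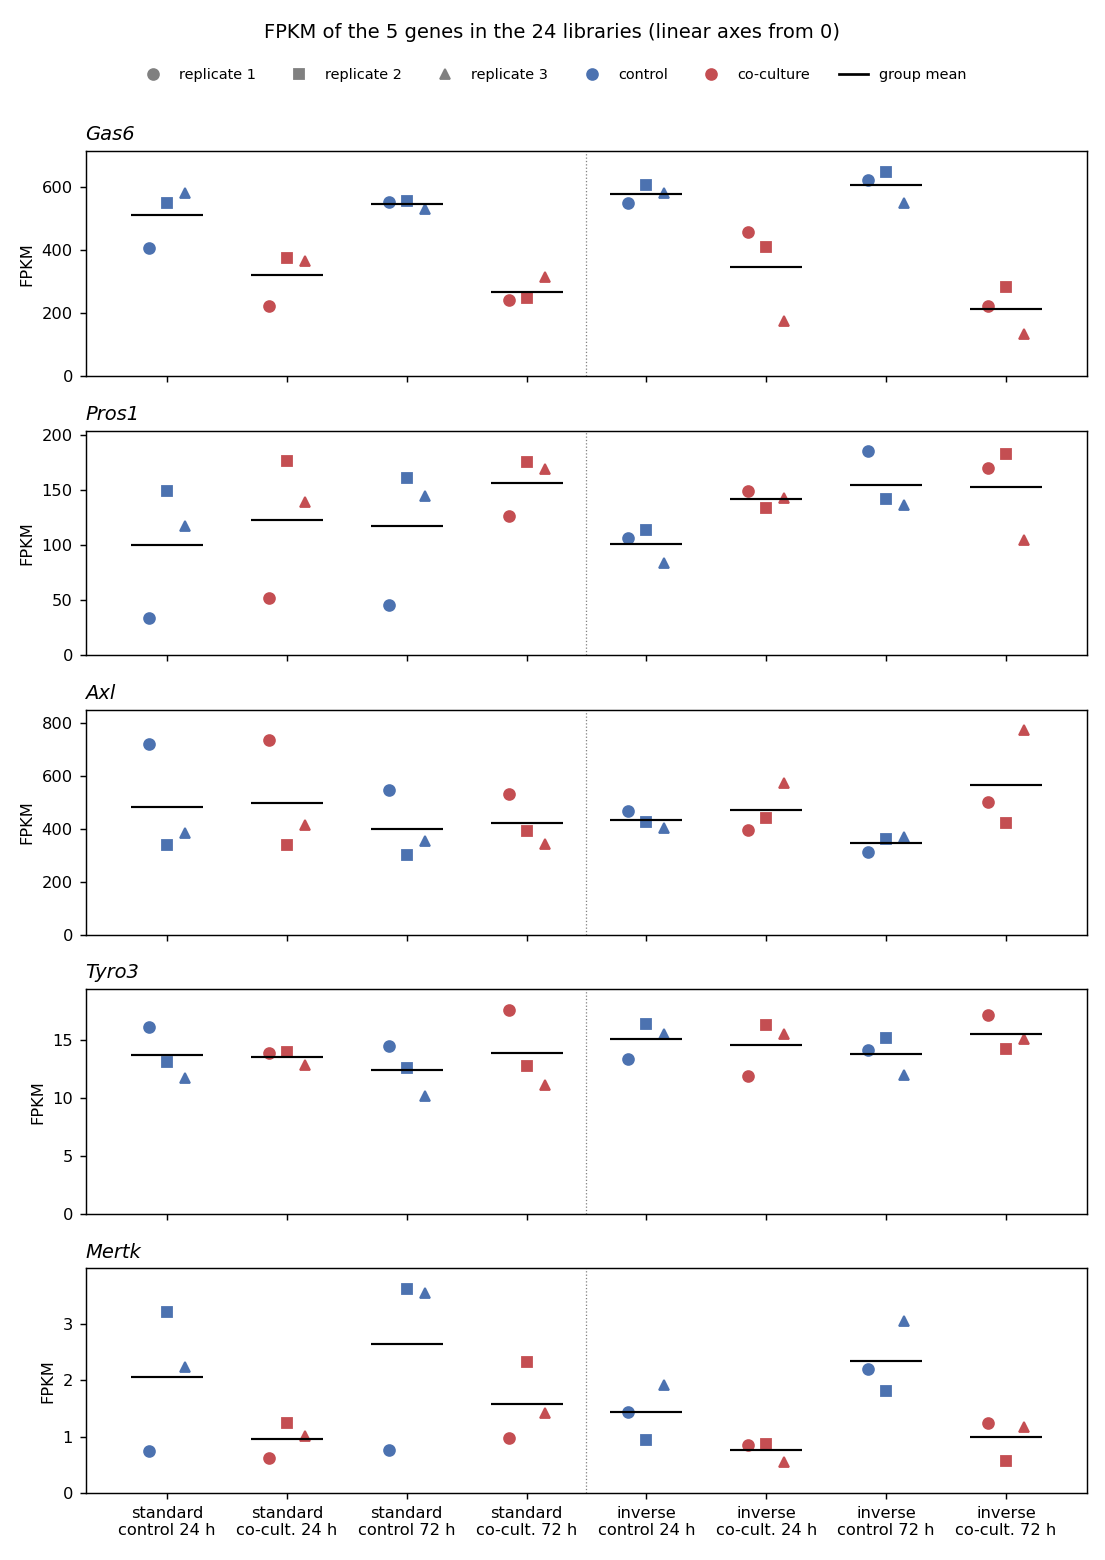
FPKM of Gas6, Pros1, Axl, Tyro3 and Mertk (linear vertical axes from 0) in the 8 groups, with 1 symbol for each replicate, blue for controls, red for co-cultures and a black line for the mean of 3 libraries. Gas6 lies lower in each co-culture group than in its own control with no overlap, while replicate 1 of the standard model sits low for Pros1 and, in its controls, for Mertk, and high for Axl.

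Gas6 was lower in co-cultured PSC than in control PSC in both models and at both times, and the decrease passed the test in inverse co-culture at 72 h. The 3 inverse controls at 72 h had 621, 647 and 548 FPKM, and the 3 inverse co-cultures 221, 281 and 132 FPKM. The highest co-culture library was below the lowest control by a wide margin. The mean was 606 ± 51.5 FPKM in controls and 211 ± 75.0 FPKM in co-cultures (SD, n = 3 each), a 2.86-fold lower level, and the log2 fold change on log2(FPKM + 0.5) was -1.58 (SE 0.25, 95% CI -2.16 to -0.995, limma moderated test, adjusted p = 0.0102). In this comparison 12.8% of 13066 genes passed an adjusted p of 0.05, 427 higher and 1251 lower in co-culture, and Gas6 was the 1 of 5 TAM genes that did. The median log2 fold change of all genes was -0.16, and under median-ratio scaling, which sets each library by its median ratio to the mean library and brought that value to -0.008, the calls split into 746 higher and 686 lower while Gas6 remained at -1.42 with an adjusted p of 0.0166. The 1678 calls became 514, 914 and 368 without control replicate 1, 2 or 3 and 503 without co-culture replicate 1. Over the alternatives tried for the Gas6 value the adjusted p ran from 0.00458 to 0.0461. These are bulk libraries, in which fewer cells of a type and less RNA per cell cannot be told apart. The summed adipocyte markers were 469 to 973 FPKM in these controls and 37.9 to 135 FPKM in these co-cultures, and the summed macrophage markers 151 to 299 and 65.4 to 95.9 FPKM. Their part in the Gas6 result was not tested.

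In inverse co-culture at 24 h Gas6 was spread more widely. The co-cultures had 456, 408 and 176 FPKM and the controls 548, 606 and 580 FPKM. No co-culture library reached the lowest control, and replicate 3 lay far below the other co-cultures. The log2 fold change was -0.85 (SE 0.30, 95% CI -1.54 to -0.16), and the limma adjusted p was 0.224, in a comparison where 2.47% of 12827 genes passed, 139 higher and 178 lower, and none of the 4 TAM genes tested did. With median-ratio scaling 179 were higher and 145 lower. The 317 calls became 71, 73 and 67 without control replicate 1, 2 or 3 and 106 without co-culture replicate 2. Without replicate 3 of the co-culture the value was -0.42 with an adjusted p of 0.0529. That library also had the lowest summed macrophage (29.0 FPKM) and adipocyte markers (115 FPKM) of the 6.

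Gas6 was also lower with KPC cells in the standard model, without passing the limma test used here. The study's own test (DESeq2) listed Gas6 among the genes changed at 72 h in the standard and in the inverse model. At 72 h the co-cultures had 240, 248 and 314 FPKM and the controls 550, 553 and 529 FPKM. The groups did not overlap, and the mean was 2.04-fold lower in co-culture with a log2 fold change of -1.03 (SE 0.15, 95% CI -1.39 to -0.67, limma adjusted p = 0.362). At 24 h the co-cultures had 222, 375 and 366 FPKM and the controls 404, 547 and 581 FPKM. The groups again did not overlap, the mean was 1.59-fold lower and the log2 fold change was -0.69 (SE 0.26, 95% CI -1.32 to -0.06, limma adjusted p = 1). Of all genes, 0% of 12859 at 24 h and 0% of 12863 at 72 h passed limma in this model, so limma called 0 of 5 TAM genes at either time. The study's DESeq2 test did call genes in this model at 24 h and at 72 h. At an unadjusted p under 0.05 limma counted 371 and 800 genes, and voom on recovered fragments called 0 at both times.

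Replicate numbers paired the standard libraries, and within each pair Gas6 was lower in co-culture. On the log2 scale the 24 h pairs differed by -0.86, -0.54 and -0.67, and the 72 h pairs by -1.20, -1.16 and -0.75. A limma fit blocked on replicate number had an SE of 0.083 at 24 h instead of 0.26, and Gas6 passed with an adjusted p of 0.0240, 1 of 157 genes called by that fit. At 72 h the blocked adjusted p was 0.217. Without replicate 1 of both groups the log2 fold change was -0.61 at 24 h (limma adjusted p = 0.437) and -0.95 at 72 h (adjusted p = 0.185). At 72 h the adipocyte sum was 52.6, 459 and 428 FPKM in controls and 90.3, 187 and 415 FPKM in co-cultures, and at 24 h 121, 224 and 563 FPKM in controls and 114, 225 and 512 FPKM in co-cultures, in the order of the replicates. The part of adipocyte RNA in the standard Gas6 values was not tested.

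No difference of the Gas6 effect between models or between times passed the test. The co-culture effect in the inverse model minus that in the standard model was -0.55 on the log2 scale at 72 h (95% CI -1.42 to 0.33, limma interaction test, adjusted p = 0.997) and -0.16 at 24 h (95% CI -1.04 to 0.72, adjusted p = 1). The effect at 72 h minus that at 24 h was -0.73 in the inverse model (95% CI -1.71 to 0.25, adjusted p = 0.575) and -0.34 in the standard model (95% CI -1.02 to 0.34, adjusted p = 1). The intervals leave room for differences of more than 1 log2 unit. None of the 5 genes passed in any of these 4 tests of a difference, in which 0% of 14452, 0% of 14452, 0% of 13722 and 0% of 13694 genes passed. The counts at an unadjusted p under 0.05 were 501, 182, 1471 and 141 genes in the same order, and voom called 0, 0, 14 and 0.

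**Figure D2:**
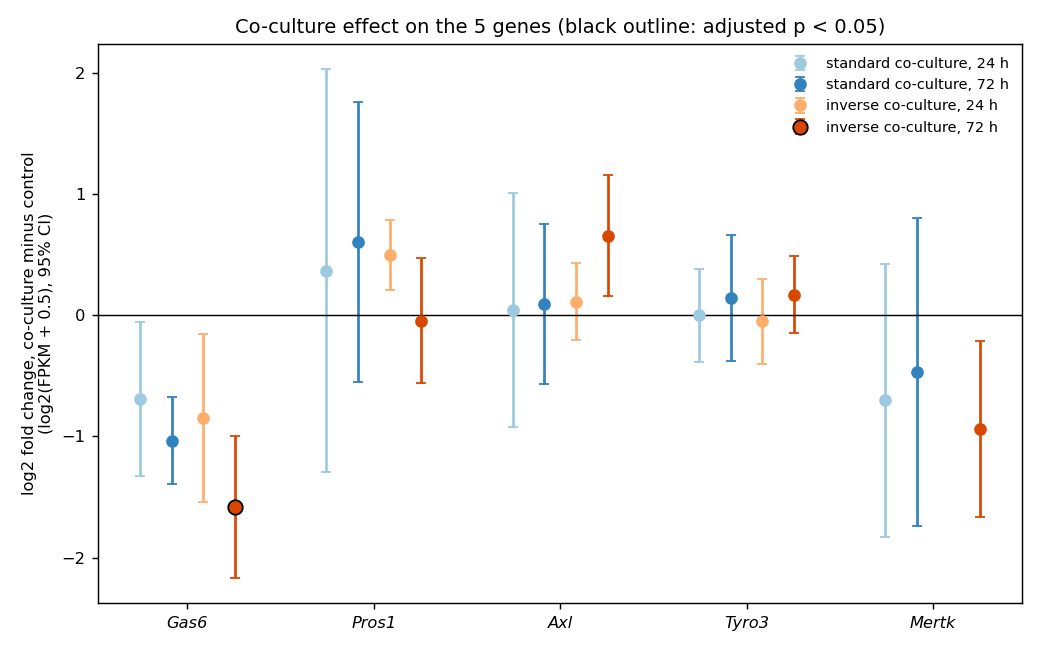
Log2 fold change of co-culture minus control for each gene on log2(FPKM + 0.5), with 95% confidence intervals from limma, in standard (blue) and inverse (orange) co-culture at 24 h (light) and 72 h (dark). Gas6 is below 0 in all 4 comparisons, with the black outline of an adjusted p under 0.05 at -1.58 in inverse co-culture at 72 h, while Mertk has no point at 24 h in the inverse model because it did not pass the filter there.

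Pros1, the gene of the second ligand and anticoagulant protein S, did not follow Gas6. In inverse co-culture at 24 h it had 149, 134 and 143 FPKM against 106, 113 and 84.2 FPKM in controls. The co-culture libraries were all above the controls, and the mean was 1.40-fold higher with a log2 fold change of 0.50 (SE 0.13, 95% CI 0.21 to 0.78, limma adjusted p = 0.0894). The voom fit of recovered fragments put it past the threshold (0.49, adjusted p = 0.0401). Pros1 and Gas6 were thus the 2 TAM genes whose groups did not overlap in this comparison among the 4 tested, where 21.2% of all genes tested did not overlap.

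At 72 h the inverse groups overlapped. Co-cultures had 170, 182 and 104 FPKM and controls 185, 142 and 136 FPKM, with a log2 fold change of -0.05 (95% CI -0.56 to 0.47). The controls themselves had moved. Control PSC of the inverse model rose from 101 ± 15.2 FPKM at 24 h to 154 ± 26.9 FPKM at 72 h (SD, n = 3 each), without overlap and with a log2 fold change of 0.60 (SE 0.15, 95% CI 0.27 to 0.94, limma adjusted p = 0.0243). Among the 5 TAM genes Pros1 was the 1 called in that comparison, in which 19.2% of 13092 genes passed (2516, and 1573 and 1243 without replicate 1 or 2 at 24 h and 1527 without replicate 1 at 72 h). The call was lost without replicate 1 at either time or replicate 3 at 24 h (adjusted p = 0.0541, 0.0639 and 0.0674), as well as without the filter (0.0748), without the intensity trend (0.0597) and with all 24 libraries in 1 model (0.519). The macrophage sum was 85.6 to 98.3 FPKM in these controls at 24 h and 151 to 299 FPKM at 72 h, and the adipocyte sum 215 to 311 and 469 to 973 FPKM, and their part in the rise of Pros1 was not tested.

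Pros1 in the standard model was split by replicate. The controls had 34.0, 149 and 117 FPKM at 24 h and 45.4, 161 and 144 FPKM at 72 h. The co-cultures had 52.0, 176 and 139 FPKM at 24 h and 126, 175 and 169 FPKM at 72 h. Replicate 1 was the lowest of each group of 3, and co-culture exceeded control in 3 of 3 pairs at both times. The pairs differed by 0.61, 0.24 and 0.25 on the log2 scale at 24 h and by 1.46, 0.12 and 0.22 at 72 h. The fit that follows was unpaired, so its intervals include the spread between replicates. The log2 fold change was 0.37 at 24 h (95% CI -1.30 to 2.03) and 0.60 at 72 h (95% CI -0.55 to 1.76), with limma adjusted p-values of 1 and 0.858. Without replicate 1 of both groups it was 0.24 and 0.17, so the value at 72 h shrank by more than 1.5 times.

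The ratio of Gas6 to Pros1 transcripts was lower in co-culture as well. On the longest-transcript scale, the ratio of the Gas6 level to the Pros1 level was 7.96 ± 1.21 in inverse controls at 72 h and 2.74 ± 0.30 in inverse co-cultures (SD, n = 3 each). At 24 h the inverse ratio was 11.6 ± 1.90 in controls and 4.89 ± 2.11 in co-cultures. The 2 groups did not overlap at either time. For the standard model the ratio was 12.8 ± 9.91 in controls and 3.46 ± 0.54 in co-cultures at 72 h, again without overlap, and 13.7 ± 8.85 against 6.02 ± 2.25 at 24 h, with overlap. Replicate 1 of the standard controls had ratios of 23.8 at 24 h and 24.3 at 72 h. Without replicate 1 the means were 7.10 in controls and 3.28 in co-cultures at 72 h and 8.63 and 4.75 at 24 h (n = 2 each), and neither pair of groups overlapped. In all 8 groups Gas6 stayed the more abundant ligand transcript, with the lowest ratio of any library at 2.46.

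**Figure D3:**
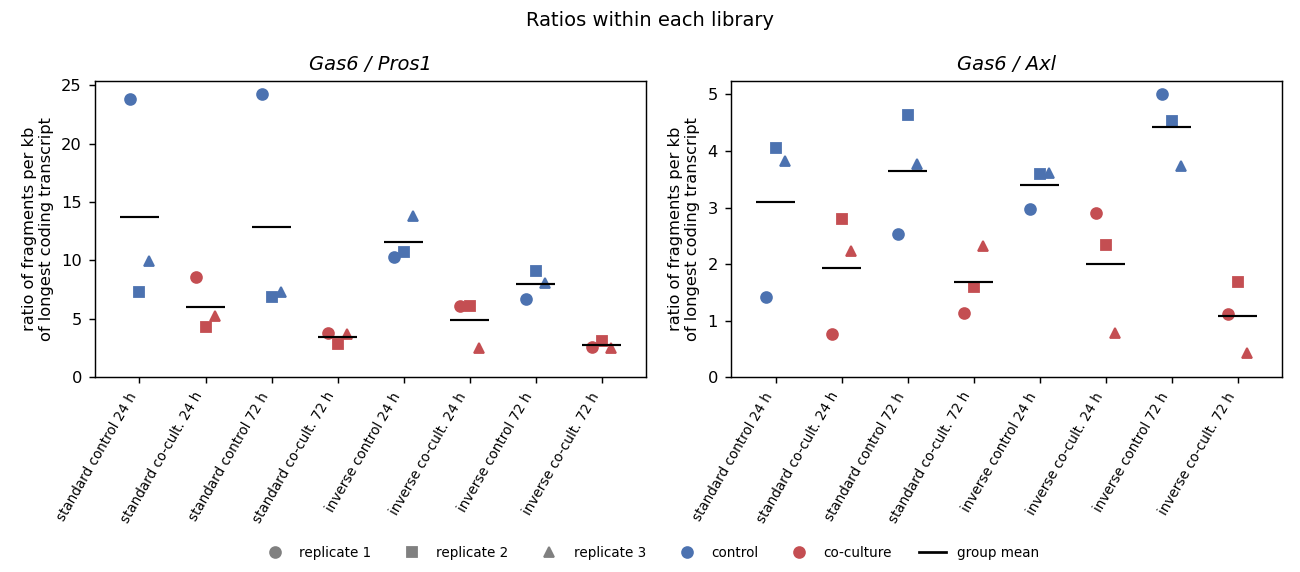
Ratio of Gas6 to Pros1 (left) and of Gas6 to Axl (right) in each library, from fragments per kilobase of the longest coding transcript (linear axes from 0), with symbols for replicates, blue for controls, red for co-cultures and black lines for means. In the inverse model at 72 h the co-cultures sit at 2.74 on average for Gas6 to Pros1 and at 1.08 for Gas6 to Axl, below all 3 controls in both panels.

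Axl, the main TAM receptor gene of these cells, was higher in inverse co-culture at 72 h without passing the test. The co-cultures had 501, 421 and 771 FPKM and the controls 312, 359 and 370 FPKM. All 3 co-cultures were above all 3 controls, with replicate 3 of the co-culture far above the rest. The mean was 1.63-fold higher with a log2 fold change of 0.66 (SE 0.21, 95% CI 0.16 to 1.15, limma adjusted p = 0.0808). Median-ratio scaling gave 0.82 with an adjusted p of 0.0498, and the fit without replicate 2 of the co-culture 0.84 with an adjusted p of 0.0383. Without replicate 3 of the co-culture the value was 0.41 (adjusted p = 0.0734). Gas6, Axl and Mertk were the 3 of 5 TAM genes whose groups did not overlap here, against 38.3% of all genes tested.

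At 24 h in the inverse model Axl had 397, 440 and 574 FPKM in co-culture and 465, 424 and 404 FPKM in controls. These groups overlapped, with a log2 fold change of 0.11 (95% CI -0.21 to 0.43, limma adjusted p = 0.787). In inverse controls Axl was lower at 72 h than at 24 h, 347 ± 30.7 against 431 ± 31.0 FPKM (SD, n = 3 each), with no overlap and a log2 fold change of -0.31 (SE 0.10, limma adjusted p = 0.0607). Pros1 and Axl were the 2 of 5 genes without overlap between the inverse control times, against 39.7% of all genes tested. The difference between the co-culture effects at 72 h and 24 h was 0.55 for Axl (95% CI -0.06 to 1.15, limma adjusted p = 0.496).

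Axl in the standard model had nearly the same mean in co-culture and control, with wide intervals in the unpaired fit. At 24 h co-cultures had 735, 338 and 412 FPKM and controls 719, 340 and 382 FPKM, and at 72 h co-cultures had 529, 391 and 342 FPKM and controls 546, 300 and 354 FPKM. Replicate 1 was the highest of each group. The log2 fold change was 0.04 at 24 h (95% CI -0.92 to 1.01) and 0.10 at 72 h (95% CI -0.56 to 0.76), and without replicate 1 of both groups 0.05 and 0.17. Gas6 was the 1 gene of 5 whose groups did not overlap in standard co-culture, against 7.73% of all genes tested at 24 h and 13.1% at 72 h.

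The ratio of Gas6 to Axl, ligand to main receptor, was lower on average in each co-culture group than in its control. Gas6 to Axl on the longest-transcript scale was 4.43 ± 0.65 in inverse controls and 1.08 ± 0.63 in inverse co-cultures at 72 h (SD, n = 3 each), and no co-culture reached the lowest control at 3.73. At 72 h it was 3.65 ± 1.06 and 1.68 ± 0.59 in the standard model, and these groups did not overlap either. At 24 h it was 3.39 ± 0.37 and 2.00 ± 1.101 in the inverse model and 3.10 ± 1.46 and 1.93 ± 1.05 in the standard model. The standard groups overlapped at 24 h and the inverse groups did not. Without replicate 1 the standard control mean was 4.20 and the co-culture mean 1.96 at 72 h, and these means were 3.94 and 2.51 for 24 h (n = 2 each), without overlap at either time.

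Tyro3, the receptor best known from neurons, was expressed at a low and even level. It ranged from 10.1 to 17.6 FPKM over all 24 libraries, a 1.74-fold span that was the narrowest of the 5 genes. The group means ran from 12.4 FPKM in standard controls at 72 h to 15.5 FPKM in inverse co-cultures at 72 h, and every co-culture group overlapped its control. The log2 fold changes of co-culture against control were -0.001 and 0.14 in the standard model at 24 h and 72 h and -0.05 and 0.17 in the inverse model. Their 95% confidence intervals all lay between -0.40 and 0.66.

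Mertk, the receptor of macrophage clearance, was near the limit of 1 FPKM and rested on 32 to 256 fragments a library. The lowest count, 32, has an exact 95% Poisson interval of 21.9 to 45.2, which covers counting error only. In the inverse model at 72 h the co-cultures had 1.25, 0.57 and 1.17 FPKM and the controls 2.20, 1.81 and 3.04 FPKM. All co-cultures were below all controls, with a log2 fold change of -0.94 on log2(FPKM + 0.5), a scale that understates changes of so low a gene (SE 0.31, 95% CI -1.67 to -0.22, limma adjusted p = 0.0846). Voom on recovered fragments gave -1.29 with an adjusted p of 0.0425. At 24 h Mertk had 0.86, 0.88 and 0.56 FPKM in inverse co-culture and 1.44, 0.94 and 1.93 FPKM in inverse controls, without overlap but with too few libraries above 1 FPKM to enter the test. Without the filter its log2 fold change was -0.59 (limma adjusted p = 0.585).

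Mertk in the standard model was split by replicate too. The controls had 0.75, 3.22 and 2.24 FPKM at 24 h and 0.77, 3.62 and 3.54 FPKM at 72 h. The co-cultures had 0.62, 1.24 and 1.01 FPKM at 24 h and 0.99, 2.32 and 1.42 FPKM at 72 h. Replicate 1 was lowest in each group, and at 72 h it was the 1 pair of 3 with more Mertk in co-culture. The pairs differed by -0.16, -1.1 and -0.86 on the log2 scale at 24 h and by 0.22, -0.55 and -1.07 at 72 h. The log2 fold change was -0.70 at 24 h and -0.47 at 72 h (limma adjusted p = 1 and 0.913), and without replicate 1 of both groups -0.98 and -0.81 (adjusted p = 0.554 and 0.310).

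Mertk was correlated with the macrophage markers over the libraries, with exceptions. Pearson's r between log2 Mertk and the log2 sum of the 17 macrophage markers was 0.76 over the 24 libraries, a description over libraries that share cultures, time points and groups. Standard replicate 2 had the highest macrophage sums of its groups, 651, 491, 1640 and 946 FPKM in 24 h controls, 24 h co-cultures, 72 h controls and 72 h co-cultures. It also held the highest Mertk of each of these groups. In the other 20 libraries the sum was at most 299 FPKM. A high sum did not always go with high Mertk. Replicate 2 of standard co-culture at 24 h had 1.24 FPKM of Mertk, beside a median of 1.24 FPKM over the 24 libraries. Replicate 3 of the standard controls at 72 h had 3.54 FPKM of Mertk at a macrophage sum of 219 FPKM, against 3.62 FPKM in replicate 2. The macrophage markers Adgre1 (F4/80) and Ptprc (CD45) had medians of 0.895 and 0.444 FPKM and maxima of 16.0 and 7.99 FPKM. The part of macrophage RNA in the Mertk values was not tested.

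**Figure D4:**
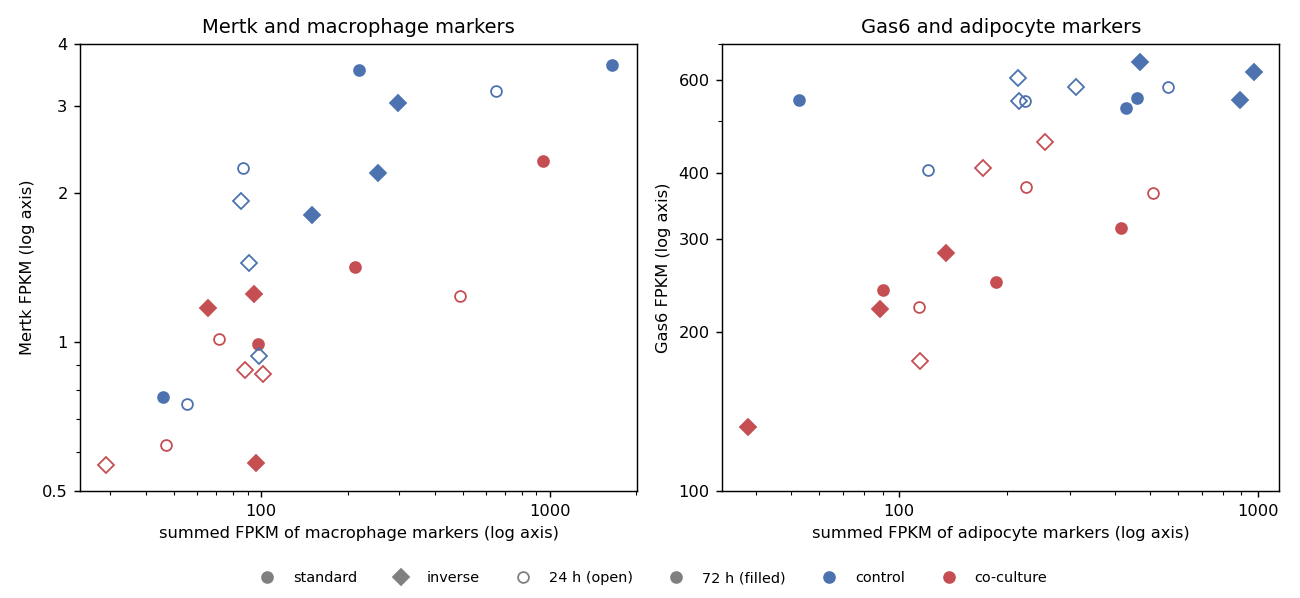
Mertk FPKM against the summed FPKM of 17 macrophage markers (left) and Gas6 FPKM against the summed FPKM of 8 adipocyte markers (right), 1 point a library, on log axes, with circles for the standard and diamonds for the inverse model, open symbols for 24 h and filled symbols for 72 h, blue for controls and red for co-cultures. Mertk has an r of 0.76 with the macrophage sum, and Gas6 has an r of 0.66 with the adipocyte sum.

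For the other 4 genes r with the macrophage sum was 0.30 for Gas6, 0.54 for Pros1, -0.73 for Axl and -0.43 for Tyro3. With the adipocyte sum r was 0.66 for Gas6, 0.43 for Pros1, -0.79 for Axl, -0.57 for Tyro3 and 0.63 for Mertk. Axl was thus high in the libraries low in both lists, among them replicate 1 of the standard model and replicate 3 of inverse co-culture at 72 h. Between the genes themselves r was -0.69 for Pros1 and Axl, -0.67 for Axl and Mertk, -0.63 for Gas6 and Axl and -0.03 for Gas6 and Pros1. All of these are descriptions over 24 libraries that share groups and cultures.

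Without KPC cells, the mean of Gas6 was 511 FPKM at 24 h and 544 FPKM at 72 h in standard controls, and 578 and 606 FPKM in inverse controls. The log2 difference of 72 h against 24 h was 0.11 in the standard controls (95% CI -0.35 to 0.57) and 0.07 in the inverse controls (95% CI -0.16 to 0.29). None of the 5 genes passed between times in standard controls, where limma called 0% of 12963 genes (127 at an unadjusted p under 0.05 and 0 by voom). Neither did any pass between inverse and standard controls, at 24 h with 0% of 12903 genes (225 unadjusted, 0 by voom) or at 72 h with 0% of 13106 genes (810 unadjusted, 0 by voom).

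The genes whose profile was most like each TAM gene over the 24 libraries were taken from the 14451 other genes above 1 FPKM in at least 3 libraries. For Gas6 they were Cabin1 (r = 0.947), Limch1 (0.947) and Abat (0.936), and for Pros1 Lgi2 (0.975), Cpxm1 (0.973) and Kng1 (0.969). For Axl they were Tnk2 (0.962), Psat1 (0.956) and Ergic1 (0.945), and for Mertk Enpp5 (0.907), Itih5 (0.895) and Abca3 (0.892). Tyro3, with little variation to follow, had Mapk13 (0.771), Tcf3 (0.742) and Hnrnpa0 (0.737). The 5 genes shared no gene among these nearest profiles.

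The wider pathway was covered by 6 lists with 81 genes. In inverse co-culture at 72 h 7 of the 56 genes tested were lower and 0 higher, which is 12.5% beside 12.8% of all genes. With median-ratio scaling 5 were lower and 1 was higher. At 24 h in the inverse model 1 of 55 was lower under both scalings, and in the standard model 0 of 57 at 24 h and 0 of 56 at 72 h passed.

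The vitamin K cycle, which carboxylates the Gla domains of both ligands, had 6 of 6 genes tested. Its median log2 fold change in inverse co-culture at 72 h was -0.07 against -0.16 for all genes, with 1 gene lower. That gene was Aifm2, the enzyme FSP1 that reduces vitamin K, at 33.1 ± 3.44 FPKM in controls and 22.8 ± 0.50 FPKM in co-cultures (SD, n = 3 each, log2 fold change -0.53, limma adjusted p = 0.0239). The Aifm2 call was lost with median-ratio scaling (adjusted p = 0.0607), with the replicate block (0.0560), with all 24 libraries in 1 model (0.363) and without co-culture replicate 1, control replicate 1 or control replicate 3 (adjusted p = 0.0762, 0.0948 and 0.102). Ggcx, the carboxylase itself, had a median of 1.58 FPKM over the 24 libraries.

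Of the 2 metalloproteases that shed TAM receptor ectodomains, Adam17 fell in inverse co-culture at 72 h and Adam10 was not called. Adam17 was 43.2 ± 5.49 FPKM in controls and 24.3 ± 2.23 FPKM in co-cultures (SD, n = 3 each), a log2 fold change of -0.82 (SE 0.13, limma adjusted p = 0.00936). The model of all 24 libraries lost the Adam17 call (adjusted p = 0.0984). Adam10 was 69.3 ± 6.11 and 63.7 ± 1.62 FPKM.

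Among the adaptors and effectors downstream of the receptors, 25 of 28 genes were tested at 72 h in the inverse model and 2 were lower. Pik3r1, the p85 regulatory subunit of PI3K, fell from 101 ± 10.8 FPKM in controls to 38.5 ± 6.18 FPKM in co-cultures (SD, n = 3 each, log2 fold change -1.38, SE 0.14, limma adjusted p = 0.00385). It was also the 1 pathway gene called at 24 h, at 69.3 ± 4.26 and 42.8 ± 5.82 FPKM (log2 fold change -0.70, limma adjusted p = 0.0266). The call at 24 h was lost without any 1 of the 3 controls or without co-culture replicate 2 (adjusted p = 0.0841 to 0.132), without the filter (0.0836), without the trend (0.0796), with the replicate block (0.108) and with all 24 libraries in 1 model (0.297), while that at 72 h held in every alternative run. In standard co-culture Pik3r1 was lower in 3 of 3 pairs at both times without passing, with log2 fold changes of -0.36 and -0.73 (limma adjusted p = 1 and 0.745). The list's median of -0.16 equalled that of all genes.

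Of the other bridges, receptors and scramblases of phosphatidylserine, 16 of 27 were tested and 3 were lower in inverse co-culture at 72 h. Cd36, a scavenger receptor and fatty acid transporter, was 93.8 ± 39.2 FPKM in controls and 9.37 ± 5.19 FPKM in co-cultures (SD, n = 3 each, log2 fold change -3.31, SE 0.47, limma adjusted p = 0.00774). Scarb1, the HDL receptor, was 65.8 ± 14.4 and 22.1 ± 1.21 FPKM (log2 fold change -1.53, adjusted p = 0.00407), and Stab1, a scavenger receptor of macrophages and sinusoidal endothelium, 16.4 ± 4.84 and 6.44 ± 0.59 FPKM (log2 fold change -1.25, adjusted p = 0.0110). The Stab1 call was lost with all 24 libraries in 1 model (adjusted p = 0.518). The adipocyte and macrophage sums given with the Gas6 result were lower in the same co-cultures, and their part in these 3 genes was not tested.

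The 2 remaining lists had no tested gene called by limma in any of the 4 comparisons. F5, a listed protein S partner, did not enter the limma test in standard co-culture at 72 h or in inverse co-culture at 24 h or 72 h. The study's DESeq2 test called F5 in all of these comparisons. Of the protein S partners in coagulation 3 of 6 were tested, with a median log2 fold change of 0.46 in inverse co-culture at 72 h. Tfpi, the tissue factor pathway inhibitor that protein S assists, was 55.9 ± 2.86 FPKM in controls and 58.5 ± 1.99 FPKM in co-cultures. Thbd, the gene of thrombomodulin, was 45.2 ± 8.67 and 61.6 ± 4.4 FPKM (log2 fold change 0.46, limma adjusted p = 0.0771) and was the 1 pathway gene called higher under median-ratio scaling. Of the other Gla domain proteins 4 of 12 were tested, with a median of -0.12. Mgp, the matrix Gla protein, was 98.2 ± 11.03 and 179.7 ± 160.4 FPKM (log2 fold change 0.17), a value that turned to -0.65 without co-culture replicate 2 and -0.16 without co-culture replicate 1 and passed at 1.32 without co-culture replicate 3 (limma adjusted p = 0.0202). Prrg2, a transmembrane Gla protein, was 30.5 ± 3.13 and 21.4 ± 3.27 FPKM (log2 fold change -0.51, limma adjusted p = 0.0523).

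**Figure D5:**
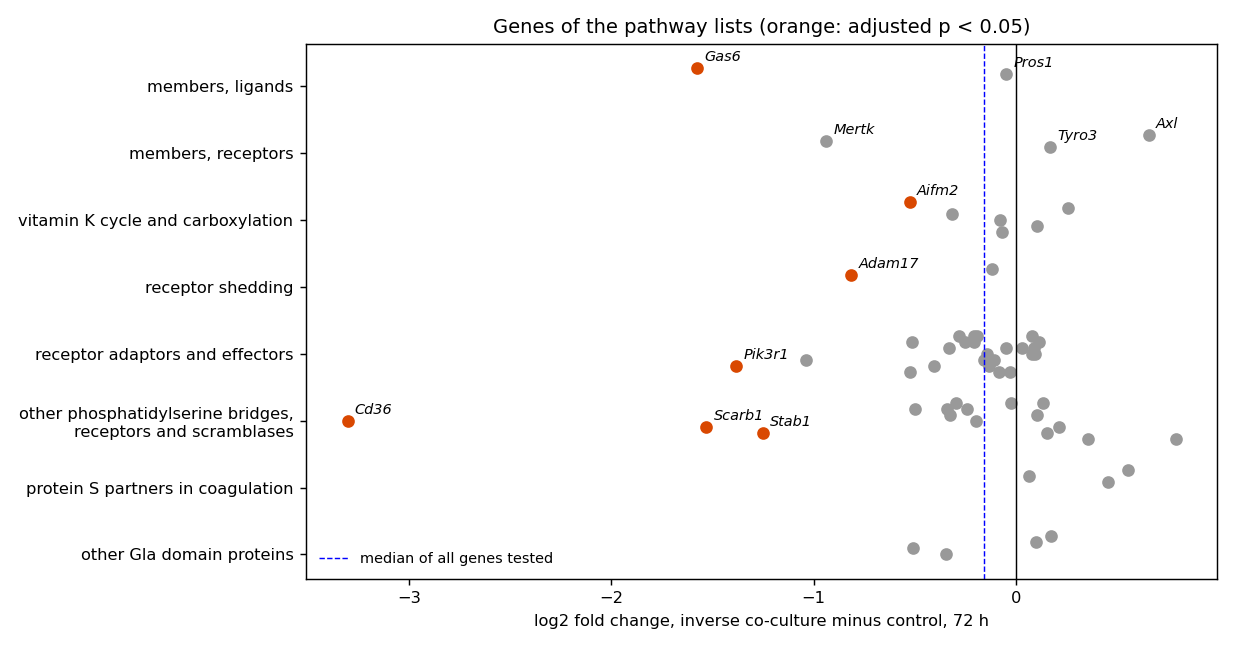
Log2 fold change of inverse co-culture minus control at 72 h (log2(FPKM + 0.5)) for the tested TAM genes and pathway genes, 1 point a gene in rows of lists, orange for an adjusted p under 0.05, with a dashed line at the median of all genes (-0.16). Gas6 and 6 of the 7 called pathway genes are drawn in orange, all to the left of 0, from Aifm2 at -0.53 to Cd36 at -3.31.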

How the data were processed

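Per the labels and the study's methods, the authors sequenced polyA libraries (paired reads of 150 bases), called bases with CASAVA, aligned with HISAT2 2.0.5 to GRCm38, counted with featureCounts 1.5.0-p3 and tested with DESeq2 1.20.0. The deposited values are FPKM, 1 column a library, scaled by library total only. featureCounts was run with default settings, which do not use strand. The annotation release is not given in the sources used here, and the gene names, positions and transcripts are those of the GENCODE M21 annotation of GRCm38 (53706 of 53801 identifiers matched).

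Library totals and fragments were recovered from the FPKM: for 28576 of 28892 genes above 0 (98.9%) values became whole, within 0.02 of a fragment below 20 fragments, with the gene's mean transcript length for 27228 of them. Genes above 1 FPKM in at least 3 of the libraries compared were tested with limma 3.58.1 (R 4.3.3) on log2(FPKM + 0.5) with an intensity trend, two-sided, with Benjamini-Hochberg adjustment over all genes tested and a threshold of 0.05. Co-cultures were set against the control of the same model and time, and effects were compared by interaction contrasts. Exact tests of 3 against 3 libraries cannot go below p = 0.1 and were not used. The labels number replicates without saying what a number shares, so p-values cover the spread between these libraries. Same-numbered libraries deviated together in the standard model (r 0.46 to 0.77 between control and co-culture at 24 h, 0.39 to 0.54 at 72 h) and not in the inverse model (-0.12 to 0.02 and -0.08 to 0.10), so numbers pair the standard libraries by this check of the data. The 2 co-culture fits at 72 h were run on simulated data with independent noise in each library. That run covered neither the pairing of libraries nor the interaction contrasts. The members, gene lists and motifs were chosen with earlier results of these data known. Pathway genes were named when called in any co-culture comparison, up to 4 a list by adjusted p, or otherwise the 2 with the highest median FPKM, and Ggcx, Adam10 and the macrophage markers were added after their values were seen. Alternatives were pseudocounts of 1 and 0.1, no filter, a mean FPKM above 5, median-ratio scaling, no trend, the replicate block, voom on recovered fragments, all 24 libraries in 1 model and each library left out. The transcript length behind the recovered fragments and the step of leaving out replicate 1 of both standard groups together were chosen after seeing the data. Certain items, among them 1 called pathway gene that is counted in its list, are not reported here by name.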

Additional observations from a re-analysis of the deposited data

How the results depend on the processing

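Of 226 recomputed counts of called TAM genes 213 stayed as they were or within 1.5 times, and of 1316 recomputed single-gene values 1213 kept direction and call, 22 lost a call, 11 gained one and 70 changed sign. Standard co-culture at 24 h had 1 call (Gas6) with the replicate block, which called 1.22% of all genes tested. Inverse co-culture at 24 h had 1 (Pros1) with voom, which called 4.09% of all genes tested. Inverse co-culture at 72 h had 2 with median-ratio scaling (Gas6 and Axl) and 2 with voom (Gas6 and Mertk), and 1 to 2 without single libraries (2 without co-culture replicate 2). Of all genes tested there, median-ratio scaling called 11%, voom 16% and the fit without co-culture replicate 2 12.7%. Inverse controls, 72 h against 24 h, had 2 with median-ratio scaling and 2 with voom (Pros1 and Axl), 0 without the filter, 0 without the trend, 0 with all 24 libraries and 0 to 1 without single libraries. Between these control times median-ratio scaling called 20.6% and voom 23.5% of all genes tested. The replicate block changed no other count of called TAM genes. In the inverse model replicate numbers do not pair the libraries by the check of deviations, and the block gave 88 genes instead of 317 at 24 h and 902 instead of 1678 at 72 h, while Gas6 at 72 h kept its call (adjusted p = 0.0217). Blocking lost the inverse calls of Pik3r1 at 24 h (adjusted p = 0.108) and of Aifm2 at 72 h (0.0560). Over all genes the block called 157 instead of 0 in the standard model at 24 h, 1 instead of 0 at 72 h, and 16 instead of 0 for the difference between models at 72 h. All 24 libraries in 1 model called 5 genes at 24 h and 45 at 72 h for the standard comparison, 12 and 940 for the inverse one, 236 between inverse control times and 3 between models in 72 h controls. That model lost the inverse calls of Pik3r1 at 24 h and of Aifm2, Adam17 and Stab1 at 72 h. Without the filter inverse co-culture had 50 and 888 calls, inverse control times 1425 and the differences of effects 2 and 5 between models and 3 and 4 between times. Without standard control replicate 1 there was 1 call for the difference between models at 24 h, 58 between inverse and standard controls at 24 h and 3 at 72 h, and the difference between inverse times had 75 without co-culture replicate 3 at 24 h, 43 without control replicate 2 at 72 h and 20 and 2 without co-culture replicates 2 and 3 at 72 h. Voom had 519 in inverse co-culture at 24 h, and without the trend there were 98.

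Values near 0 changed sign, and so did some larger ones. Among the larger were Pros1 in standard co-culture at 24 h (0.365 in the main fit) and Mertk for the inverse minus the standard effect at 72 h (-0.474). With median-ratio scaling the log2 fold change became 0.017 for Tyro3 in standard and 0.0087 in inverse co-culture at 24 h, 0.11 for Pros1 and 0.043 for Adam10 in inverse co-culture at 72 h, and -0.048 for Mertk between inverse and standard controls at 72 h, where a pseudocount of 1 gave -0.013. Without single libraries, in standard co-culture at 24 h Pros1 ran from -0.28 to 0.89, Axl from -0.28 to 0.38 and Tyro3 from -0.099 to 0.12, and at 72 h Axl from -0.089 to 0.34 and Tyro3 from -0.039 to 0.28. In inverse co-culture Axl ran from -0.042 to 0.22 and Tyro3 from -0.13 to 0.082 at 24 h, and at 72 h Pros1 from -0.20 to 0.20 and Mgp from -0.65 to 1.32. For the inverse minus the standard effect at 24 h the ranges were -0.42 to 0.27 for Gas6, -0.40 to 0.78 for Pros1, -0.27 to 0.39 for Axl, -0.17 to 0.082 for Tyro3 and -0.22 to 0.57 for Mertk, and at 72 h -0.11 to 0.21 for Tyro3 and -0.76 to 0.086 for Mertk. For the 72 h minus the 24 h effect in the standard model they were -0.34 to 0.89 for Pros1, -0.28 to 0.38 for Axl, -0.038 to 0.28 for Tyro3 and -0.32 to 0.69 for Mertk. Between standard control times they were -0.051 to 0.21 for Gas6, -0.37 to 0.85 for Pros1, -0.48 to 0.10 for Axl and -0.20 to 0.81 for Mertk. Between inverse and standard controls they were -0.39 to 0.67 for Pros1, -0.29 to 0.25 for Axl and -0.75 to 0.033 for Mertk at 24 h, and -0.35 to 0.087 for Axl and -0.54 to 0.30 for Mertk at 72 h. The causes were not tested. Depth limits Mertk most, at 32 to 256 fragments a library.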
